A study of Homo sapiens with 12 samples.

Results

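The BCL2 family decides whether the outer membrane of mitochondria stays intact. Its inhibitors of cell death (BCL2, BCL2L1 and MCL1) hold back pore-forming effectors such as BAK1, and the BH3-only proteins (BCL2L11, BID, BAD, BIK, BMF and PMAIP1) bind the inhibitors or activate the effectors when a cell is stressed. Once pores form, cytochrome c leaves the mitochondria and caspases are activated. The CCR4-NOT complex, whose subunits were depleted in these cells, shortens the poly(A) tails of mRNAs and also acts on transcription and translation.

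These 10 genes were followed by their gene symbols across all 12 arrays, 10 of 20042 genes with a value on every array. RNA came from HEK-293T cells, an epithelial human line that carries adenoviral E1 genes, one of which encodes a BCL2-like inhibitor of apoptosis, and the SV40 large T antigen, which binds p53. Stable clones carrying a pINDUCER plasmid expressed a miR30-based shRNA against CNOT1, CNOT2 or CNOT3, or against luciferase as a control (pIND Luci), when Dox was added. Cells were treated for 4 days with 1 µg/ml Dox (+Dox) or left untreated (-Dox). The CNOT1 and CNOT3 lines had 1 array with and 1 without Dox, and the CNOT2 and Luci lines had 2 of each, so that the lines had 2, 2, 4 and 4 arrays. Each line goes back to the cells that were selected after integration, so that a difference between lines cannot be told apart from a difference between the cells chosen. The second Luci -Dox array is called untreated by its title and Dox-treated by another label, and the title was followed.

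All values are log2 signals of single spots after quantile normalization, so that all arrays share the median (3.34) and the upper quartile (6.69). Each targeted mRNA was lowest on the +Dox arrays of its own line. The drop against the same line without Dox was 2.16 for CNOT1, 1.12 for CNOT2 and 2.16 for CNOT3 on the log2 scale. The tests of Dox effects given below did not call these drops. CNOT3 mRNA was already at 8.96 in CNOT3 -Dox cells, compared with 9.76 to 10.68 in the other lines, and its part in the line differences below was not tested. Markers of the line were above the median spot on all arrays, such as KRT18 at 10.96 to 12.39 and VIM at 13.35 to 14.7. Among them NEFM varied most, at 8.63 to 14.93, and LMNB1 was at 8.47 to 9.9. KRT8 (5.71 to 8.28) and PAX2 (6.47 to 8.52) were dimmer. PTPRC, CD3E and HBB of blood cells (2.11 to 4.1) stayed around the median. So did LUM of fibroblasts (1.9 to 3.92) and ALB of liver (1.81 to 4.31). Other genes of the blood, liver and fibroblast lists were brighter, with CD14 at 2.78 to 5.48, APOA1 at 2.39 to 4.87 and DCN at 2.29 to 5.46. COL1A1 of fibroblasts, at 6.34 to 7.94, overlapped with KRT8 and PAX2. In RNA from whole cultures, fewer cells with an mRNA and less of it per cell cannot be told apart. All 10 genes passed the filter on low values.

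The promoters of PMAIP1 and BAK1 are shown because these were the only family members whose levels separated the CNOT1 and CNOT3 lines from the CNOT2 and Luci lines. Each RefSeq window (GRCh38.p14) runs 5′ to 3′ on the strand of its gene, from 250 bases before the start of transcription to 50 after it. Capitals mark matches on either strand to the GC box (GGGCGG) and to the core of the cAMP response element (TGACGT). They also mark the CCAAT box, the TATA box (spelled TATAAA) and the E-box of the sequence CACGTG.
PMAIP1, chr18:59899746-59900045, plus strand: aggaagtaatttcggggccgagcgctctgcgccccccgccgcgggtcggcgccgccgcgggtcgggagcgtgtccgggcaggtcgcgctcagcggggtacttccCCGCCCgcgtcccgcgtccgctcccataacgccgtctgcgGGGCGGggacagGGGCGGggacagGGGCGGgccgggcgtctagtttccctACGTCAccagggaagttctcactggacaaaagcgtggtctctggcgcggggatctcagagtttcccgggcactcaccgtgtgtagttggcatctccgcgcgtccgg
BAK1, chr6:33580227-33580526, minus strand: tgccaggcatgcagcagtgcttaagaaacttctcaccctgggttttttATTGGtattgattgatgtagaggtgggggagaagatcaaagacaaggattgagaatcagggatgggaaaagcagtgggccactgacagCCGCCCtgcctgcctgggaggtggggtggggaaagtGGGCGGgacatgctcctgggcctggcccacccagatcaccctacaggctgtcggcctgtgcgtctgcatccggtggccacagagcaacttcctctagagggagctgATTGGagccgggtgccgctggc
The PMAIP1 window held 4 GC boxes and 1 response element core, which 45.0% and 7.98% of 35116 promoter windows of the same length hold at least once. The BAK1 window held 2 GC boxes and 2 CCAAT boxes, the latter present in 34.6% of all windows. It also held 1 match to the p53 half-site, found in 6.63% of all windows, whereas the PMAIP1 window held none. Some genes have several windows, such as BID with 5. Counted by gene over all of its windows, 7 of 8 family members had a GC box and 4 of 8 a CCAAT box, compared with 48.3% and 39.7% of 27305 genes. The TATA box was found in BCL2L1 only and the E-box in BID only, compared with 14% and 8.77% of genes. These are matches of letters and no binding was measured. BIK and MCL1 are the others.

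**Figure D1:**
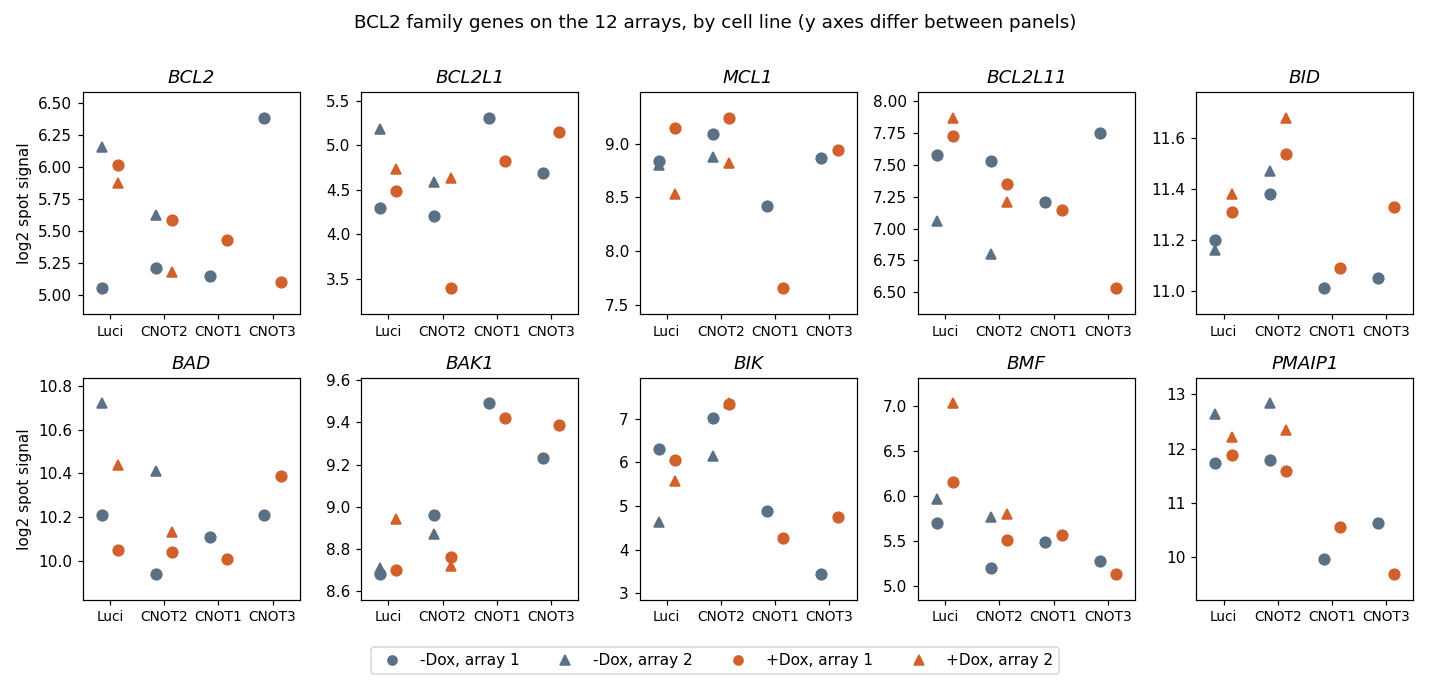
Log2 spot signal of each family member on every array, by cell line (grey, -Dox, orange, +Dox, circles, array 1, triangles, array 2). PMAIP1 lies between 9.69 and 10.62 on the CNOT1 and CNOT3 arrays and between 11.59 and 12.83 on the others, and BAK1 is separated in the opposite direction.

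The levels were first compared between lines over both Dox states. PMAIP1 encodes NOXA, a BH3-only protein that binds MCL1 and that p53 and stress signals induce in many cells. It was measured at 11.74 and 12.63 in Luci -Dox cells, at 11.89 and 12.22 in Luci +Dox cells, at 11.78 and 12.83 in CNOT2 -Dox cells and at 11.59 and 12.34 in CNOT2 +Dox cells. In the CNOT1 line it was at 9.96 without and 10.56 with Dox, and in the CNOT3 line at 10.62 and 9.69. The 4 arrays of the latter lines were all below the 8 others, whether Dox was present or not. In a limma fit with terms for line and Dox, PMAIP1 was 3.63-fold lower in the CNOT1 line than in the Luci line (log2 difference -1.86, SE 0.41, adjusted p = 0.0224). It was 3.90-fold lower in the CNOT3 line (-1.97, SE 0.41, adjusted p = 0.0269). No difference was seen between the CNOT2 and Luci lines (0.01 with a 95% confidence interval from -0.74 to 0.77, adjusted p = 0.998). Replicates 2, which exist for the CNOT2 and Luci lines only, were on average 0.76 higher for PMAIP1 than replicates 1. With the replicate number as a block the differences were accordingly smaller, at -1.48 (adjusted p = 0.0137) for CNOT1 and -1.59 (adjusted p = 0.0186) for CNOT3. On the replicate 1 arrays alone they were -1.56 (adjusted p = 0.0525) and -1.66 (adjusted p = 0.0709), so that neither passed the threshold of 0.05 there. Both calls also need each array of the line concerned, since without 1 of them the adjusted p was 0.260 or 0.0736 for CNOT1 and 0.0938 or 0.314 for CNOT3.

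BAK1, which forms pores in the mitochondrial membrane, went the opposite way. It was at 8.68 and 8.71 in Luci -Dox cells, at 8.70 and 8.94 in Luci +Dox cells, at 8.96 and 8.87 in CNOT2 -Dox cells and at 8.76 and 8.72 in CNOT2 +Dox cells. The CNOT1 line gave 9.49 without and 9.42 with Dox, and the CNOT3 line 9.23 and 9.39. Again the 4 arrays of these lines did not overlap with the other 8. The CNOT1 line was 1.62-fold above the Luci line (log2 difference 0.70, SE 0.17, adjusted p = 0.0347 by limma, 0.0177 with the replicate block). The 1.47-fold difference of the CNOT3 line did not pass (0.55, SE 0.17, adjusted p = 0.106, 0.0585 with the block), and neither did the CNOT2 line (0.07, adjusted p = 0.986). The CNOT1 call is close to the threshold, since the adjusted p was 0.0663 when dim genes were kept in the test and 0.0537 to 0.261 when 1 of 8 of the 12 arrays was left out.

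These are 2 of 10 family members without overlap between the arrays of the CNOT1 and CNOT3 lines and those of the CNOT2 and Luci lines, compared with 10.1% of all genes. By adjusted p, PMAIP1 and BAK1 (2 of 10) differed between the CNOT1 and Luci lines, where 10.3% of all 15033 genes tested did. PMAIP1 (1 of 10) differed between the CNOT3 and Luci lines, compared with 5.23% of all genes. With the replicate block 3 of 10 and 2 of 10 members were called, against 19.4% and 10.0% of all genes. The shares among the family were above those of all genes, but 1 gene more or less moves them by 10%, so that nothing is read from them. The CNOT2 line differed from the Luci line in no member and in 0.00665% of all genes. Between the CNOT1 and CNOT3 lines 1.73% of all genes and no member were called. The comparisons of the 3 CNOT lines share the 4 Luci arrays.

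MCL1, the inhibitor that PMAIP1 binds, passed the test in the CNOT1 line only with the replicate block. It was at 8.42 without and 7.65 with Dox there, compared with 8.53 to 9.15 on the Luci arrays, 8.82 to 9.24 on the CNOT2 arrays and 8.87 and 8.94 in the CNOT3 line. Both CNOT1 arrays were thus below the 10 others. The difference from the Luci line was -0.80 (SE 0.26, adjusted p = 0.0843), and with the replicate block -0.96 (SE 0.23, adjusted p = 0.0242). On the replicate 1 arrays alone it was also -0.96 but did not pass (SE 0.29, adjusted p = 0.0873). The direct difference between the CNOT1 and CNOT3 lines was -0.87 (SE 0.30, adjusted p = 0.192).

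BIK, a BH3-only protein of the endoplasmic reticulum, varied most among the family, with a range of 3.91 over the arrays. It was at 7.02 and 6.15 in CNOT2 -Dox cells and at 7.34 and 7.35 in CNOT2 +Dox cells. Luci cells gave 6.31 and 4.64 without Dox and 6.05 and 5.58 with it, so that the arrays of the 2 lines overlapped. The CNOT1 line was at 4.89 and 4.26 and the CNOT3 line at 3.44 and 4.75 without and with Dox, and of these 4 arrays only the CNOT1 -Dox and CNOT3 +Dox arrays exceeded the lowest Luci array. The order of the BIK means ran from the CNOT2 line (6.97 ± 0.57, SD, n = 4) through the Luci line (5.65 ± 0.74, SD, n = 4) to the CNOT1 (4.58 ± 0.45, SD, n = 2) and CNOT3 lines (4.10 ± 0.93, SD, n = 2). The step from Luci to CNOT2 was 1.32 (SE 0.41, 95% confidence interval from 0.41 to 2.23, unadjusted p = 0.00931), and it did not pass after adjustment over all genes (adjusted p = 0.454). The CNOT1 and CNOT3 lines differed by less than 1 SE (0.48, SE 0.58, adjusted p = 0.787). The CNOT3 line was 1.55 below the Luci line (SE 0.50, adjusted p = 0.112), a difference called only with the replicate block, where it was -1.93 (SE 0.45, adjusted p = 0.0338). On the replicate 1 arrays alone the difference was -2.09 (SE 0.48) and did not pass (adjusted p = 0.0724). For the CNOT1 line the blocked difference was -1.45 (SE 0.45, adjusted p = 0.0575).

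BMF, a BH3-only protein held at the cytoskeleton by dynein light chains, had its highest mean in Luci cells, at 5.70 and 5.97 without and 6.16 and 7.03 with Dox. It was at 5.20 to 5.80 on the CNOT2 arrays, at 5.49 and 5.57 in the CNOT1 line and at 5.27 and 5.13 in the CNOT3 line. The CNOT2 and Luci arrays overlapped by the lowest Luci value, and the arrays of both the CNOT1 and CNOT3 lines were below all Luci arrays. None of the differences passed, the largest being -1.01 (SE 0.31, adjusted p = 0.0977) in the CNOT3 line. The other BMF spot was dim, with a mean of 2.71 over the arrays, and the mean of both spots gave -0.19 (adjusted p = 0.783) for the same comparison.

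**Figure D2:**
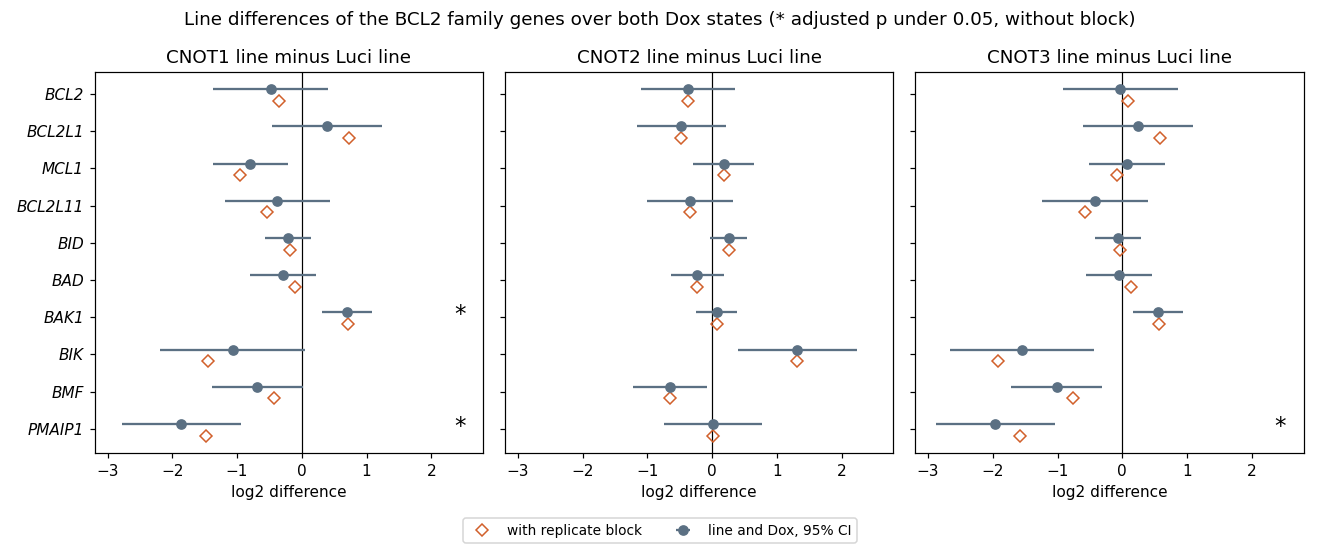
Log2 difference of each line from the Luci line over both Dox states (points with 95% confidence intervals, limma fit with line and Dox) and the same difference with the replicate number as a block (open diamonds). Asterisks mark PMAIP1 in the CNOT1 and CNOT3 lines and BAK1 in the CNOT1 line, the only calls without the block.

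No line difference of the remaining members passed the test. BID, which links death receptors to mitochondria, was at 11.01 to 11.68 on all arrays, and its CNOT2 line difference of 0.26 (SE 0.13) had an adjusted p of 0.725. BAD, which binds BCL2 and BCL2L1 and is released by loss of survival signals, was at 9.94 to 10.72, with line differences from -0.30 to -0.06 (lowest adjusted p = 0.452). The other BAD spot was dim, with a mean of 3.88 over the arrays. The mean of both spots gave line differences from -0.38 in the CNOT1 line to 0.14 in the CNOT3 line (lowest adjusted p = 0.205 by limma). BCL2L11 encodes BIM, an activator of BAX and BAK1, and its brightest spot was at 6.53 to 7.87 with a lowest adjusted p of 0.548. BCL2 and BCL2L1 gave differences from -0.48 to 0.39, with a lowest adjusted p of 0.484.

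The knock-downs themselves were then compared. No gene at all passed the threshold for the Dox effect in CNOT2 cells, for CNOT2 +Dox against Luci +Dox cells, for the Dox effect in Luci cells or for the difference of both Dox effects (each 0.0% of 15031 genes). The same held for the Dox effects in CNOT1 and CNOT3 cells and for the mean over the 3 CNOT lines (0.0% of 15033 genes). At an unadjusted p below 0.05 between 353 and 806 genes were found per comparison. Without any effect a share of 0.05 of the 15031 or 15033 genes would fall there on average, so that nothing is read from these counts. The targeted mRNAs, lower by 2.16 (CNOT1), 1.12 (CNOT2) and 2.16 (CNOT3) in their own lines, were not called after adjustment either. A missing call therefore does not show that a member was unchanged. The precision differed between members. For BID the CNOT2 Dox effect of 0.18 had an interval from -0.40 to 0.77, and for BIK that of 0.76 had one from -0.62 to 2.14. Without the replicate block, the 95% intervals of the CNOT2 Dox effect reached a 2-fold change for BCL2, BCL2L1, BIK, BMF and PMAIP1. They stayed within it for the other 5 members. With the block the SE of this effect was smaller for every member. It was 0.24 instead of 0.50 for PMAIP1 and 0.23 instead of 0.39 for BMF. No intervals were calculated with the block.

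In CNOT2 +Dox cells, the lowest p-values of the family against Luci +Dox cells belonged to BIK and BMF. BIK was 1.53 higher (SE 0.58, unadjusted p = 0.0349, adjusted p = 0.893 by limma), with 7.34 and 7.35 compared with 6.05 and 5.58. BMF was 0.94 lower (SE 0.39, unadjusted p = 0.0466, adjusted p = 0.919), with 5.51 and 5.80 compared with 6.16 and 7.03. Neither passed the adjustment. Against CNOT2 -Dox cells the differences were 0.76 (SE 0.58) for BIK and 0.17 (SE 0.39) for BMF, both with an adjusted p of 1. In Luci cells, Dox came with a BMF difference of 0.76 (SE 0.39, adjusted p = 1).

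The array pairs of each line were also compared without a test. CNOT1 +Dox differed from CNOT1 -Dox cells by more than 2-fold in no member (9.71% of all genes), the closest being MCL1 with -0.77. CNOT3 +Dox cells differed from CNOT3 -Dox cells by more than 2-fold in 3 members (11.4% of all genes), namely BCL2 (-1.28), BCL2L11 (-1.22) and BIK (1.31). These differences of the brightest spots were not called in limma's fit on all arrays. With the mean of all spots the difference was -0.885 for BCL2 and -0.577 for BCL2L11, neither past 2-fold. BIK has only 1 spot. The first CNOT2 pair had no member past 2-fold (8.83% of all genes), and the second only BIK with 1.20 (15.8%). The Luci pairs, in which no CNOT mRNA is targeted, had none in the first (9.25%) and BMF with 1.06 in the second (15.3%). BIK was higher with Dox in both CNOT2 pairs, in the CNOT3 pair and in the second Luci pair, and lower in the CNOT1 and first Luci pairs.

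BID was the only member whose brightest spot had the same sign in all pairs. Its other spot was unchanged at 10.62 in the CNOT1 pair and higher with Dox in the other pairs. With Dox the brightest spot was higher by 0.08 in CNOT1, by 0.16 and 0.21 in CNOT2 and by 0.28 in CNOT3 cells. The Luci pairs moved as far, by 0.11 and 0.22. The mean over the 3 CNOT lines was 0.18 (SE 0.18, adjusted p = 1), within the spread of the arrays.

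Against the first Luci +Dox array, CNOT1 +Dox cells differed by more than 2-fold in 3 members (22.4% of all genes), which were BIK (-1.79), MCL1 (-1.50) and PMAIP1 (-1.33). CNOT3 +Dox cells did so in 4 members (20.7%), which were PMAIP1 (-2.20), BIK (-1.30), BCL2L11 (-1.20) and BMF (-1.03). The CNOT1 and CNOT3 arrays carry no replicate number and were placed with replicate 1, since the paper describes the later replicate for CNOT2. They were also set against the second Luci +Dox array. There CNOT1 +Dox cells had PMAIP1 (-1.66), BMF (-1.46) and BIK (-1.32) past 2-fold (25.5% of all genes) but not MCL1 (-0.88), and CNOT3 +Dox cells had PMAIP1 (-2.53), BMF (-1.90) and BCL2L11 (-1.34) but not BIK (-0.83), compared with 26.8% of all genes. Against the Luci +Dox array of their own replicate number, CNOT2 +Dox cells had BIK (1.29) and BCL2L1 (-1.10) in the first pair (12%) and BIK (1.77) and BMF (-1.23) in the second (12.4%). All of these pairs compare different lines and include the line differences described above. Those of CNOT1 and CNOT3 cells with the second Luci +Dox array also cross replicates. Replicates 2 differed from replicates 1 on average by 0.76 for PMAIP1, 0.50 for BMF, -0.75 for BIK, -0.32 for MCL1 and -0.31 for BCL2L11. For PMAIP1, the CNOT3 line was already 1.12 below the first Luci array without Dox, and the CNOT1 line 1.78 below it.

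**Figure D3:**
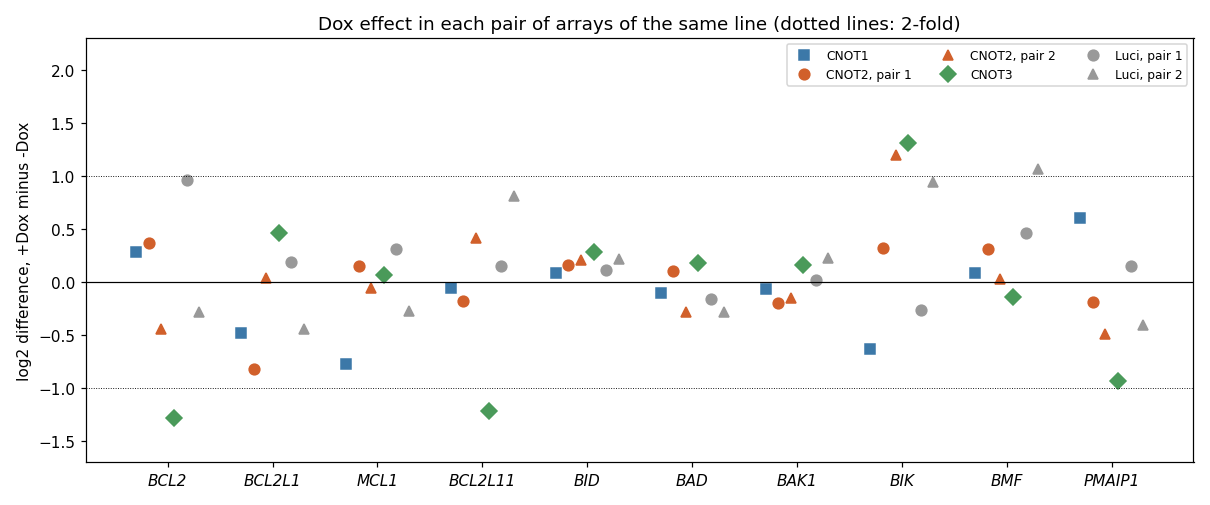
Difference in log2 signal between the +Dox and -Dox array of the same line and replicate for each family member, with Luci pairs in grey and dotted lines at 2-fold. BID lies between 0.08 and 0.28 in every pair, and the differences past 2-fold are BCL2, BCL2L11 and BIK in CNOT3, BIK in the second CNOT2 pair and BMF in the second Luci pair.

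BCL2, the inhibitor that gave the family its name, has 11 spots, and they did not all give the same picture as the brightest one. The brightest spot was at 5.21 and 5.62 in CNOT2 -Dox cells and at 5.58 and 5.18 in CNOT2 +Dox cells, a difference of -0.04. The mean over the spots was 5.47 and 5.81 without and 4.83 and 4.73 with Dox, a difference of -0.86 (SE 0.43, adjusted p = 1). In the first CNOT2 pair 8 of 11 spots were lower with Dox, in the second 11 of 11, and in the CNOT3 pair 10 of 11. The CNOT1 pair went the other way, with 8 of 11 spots higher and 2 lower with Dox. The Luci pairs went in opposite directions, with 9 of 11 spots higher in the first and 11 of 11 lower in the second. The spot mean of the second Luci -Dox array, whose labels disagree on Dox, was 6.11 and the highest of all arrays. The difference between the Dox effects of CNOT2 and Luci cells over the spot means was -0.58 (SE 0.61, adjusted p = 1). Spots of a gene share the array and its RNA and are no replicates.

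BCL2L1, which encodes BCL-XL, has 10 spots of low signal, whose brightest one was at 3.39 to 5.31. Its lowest value was that of the first CNOT2 +Dox array and its highest that of CNOT1 -Dox cells. The spots followed each other poorly over the arrays, with a median Pearson r of 0.20 over 45 pairs of spots and 12 arrays, compared with 0.63 over 55 pairs for BCL2. Dox differences of the spot mean ranged from -0.55 in the first CNOT2 pair to 0.74 in the CNOT1 pair, in which the brightest spot had -0.48.

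**Figure D4:**
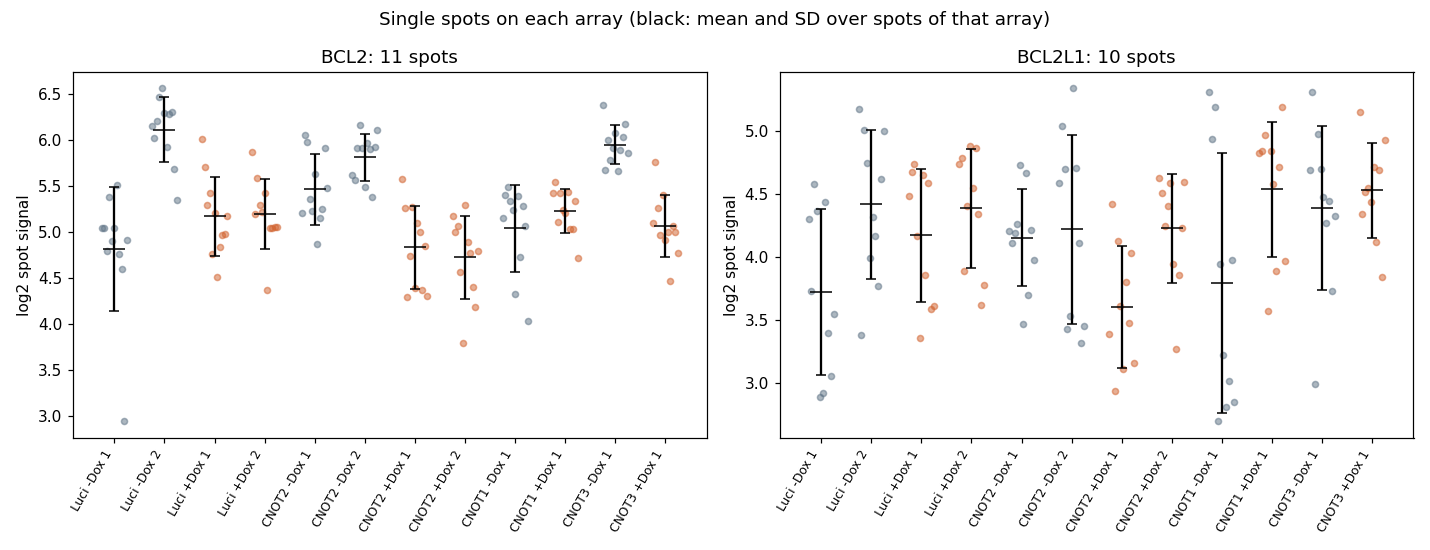
Log2 signal of every spot for BCL2 (11 spots) and BCL2L1 (10 spots) on each array, grey for -Dox and orange for +Dox, with the mean and SD over the spots of that array in black. The BCL2 means of both CNOT2 +Dox arrays (4.83 and 4.73) are below those of the CNOT2 -Dox arrays, while the 2 Luci -Dox arrays lie far apart (4.82 and 6.11).

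BCL2L11 has 3 spots, of which the brightest was at 7.53 and 6.80 in CNOT2 -Dox, 7.35 and 7.21 in CNOT2 +Dox, 7.58 and 7.06 in Luci -Dox and 7.73 and 7.87 in Luci +Dox cells. CNOT1 cells had 7.21 and 7.15, and CNOT3 cells 7.75 without and 6.53 with Dox, the lowest of all arrays. All 3 spots were lower with Dox in the CNOT3 pair, by 0.06 to 1.22. The next brightest spot separated the replicates, being at 5.06 to 5.51 on the 4 arrays numbered 2 and at 6.51 to 7.11 on the 8 others. The brightest spot did not show this split.

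Other genes of the pathway were taken from lists of known family members, caspases, IAP proteins, binding partners and regulators. No gene of these lists was called for any Dox effect or for CNOT2 +Dox against Luci +Dox cells. In the line comparisons the calls in these lists stand beside 10.3% of all genes called for the CNOT1 line and 5.23% for the CNOT3 line, and nothing particular to a list is read from them. Of 10 further BCL2 family genes tested, 2 were lower in the CNOT1 line than in the Luci line. BBC3, which encodes the p53-induced BH3-only protein PUMA, was lower by 1.16 (SE 0.32, adjusted p = 0.0492), and BOK, an effector related to BAK1, by 1.61 (SE 0.44, adjusted p = 0.0466). In the CNOT3 line BBC3 was lower by 1.39 (SE 0.32, adjusted p = 0.0381) and was the only one of the 10 called. In the CNOT1 line the median difference was -0.14 for this list and -0.43 for the 10 members, compared with 0.02 for all genes. For the CNOT3 line these medians were -0.20, -0.06 and 0.03. Of 11 apoptosome and caspase genes, only CASP2 was called, with 1.01 (SE 0.25, adjusted p = 0.0351) in the CNOT1 line. Of 14 partners and turnover factors, YWHAB, a 14-3-3 protein, was higher by 0.67 in the CNOT1 line (SE 0.18, adjusted p = 0.0417). None of 6 IAP proteins and antagonists and none of 9 transcription regulators passed in a line comparison without the block. With the replicate block (19.4% of all genes for the CNOT1 line), BNIP3 (-0.85), CASP9 (-0.96) and XIAP (-0.84) were also lower and YWHAG (0.73), E2F1 (1.01) and MYC (0.75) higher in the CNOT1 line than in the Luci line. For the CNOT3 line (10.0% of all genes) the block added DIABLO (-0.56), an antagonist of IAP proteins, and DYNLL1 (0.60), a dynein light chain. Between the CNOT1 and CNOT3 lines it gave HTRA2 (-0.64), E2F1 (1.03) and MYC (1.01), where 7.45% of all genes were called.

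For the 3 members with the largest range of group means, BIK, PMAIP1 and BMF, the genes most like them over the 12 arrays were sought among 15030 genes. PMAIP1 was followed most closely by GTPBP1, ADM2 and DHPS, each with a Pearson r of 0.967. BMF was followed by NISCH (0.960), RAB40C (0.937) and ZNF248 (0.925), and BIK by FAM150B (0.938), EMX2 (0.925) and TMEM66 (0.921). A high r does not mean a similar size of change, since TMEM66 was only at 10.63 to 11.07 over the arrays and EMX2 at 6.89 to 8.18. The correlations are descriptions over arrays that share lines and replicates, and they were picked as the highest values of the search.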

How the data were processed

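Gene expression was measured on 12 one-colour Agilent arrays. According to their methods, the authors took log mean spot signals, corrected the background with NormExp on negative control spots and quantile-normalized. The deposited values were taken as log2 from their range. Between 13 and 90 of 62976 spots per array had no value, and no detection calls were used here. The build behind the array's annotation and the version of the authors' limma are not given in the sources used here. The number of arrays limits the precision.

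The spot with the highest mean stood for a gene, and genes with a mean under the 25th percentile were not tested. Models were fitted with limma 3.58.1 (R 4.3.3) to the 8 CNOT2 and Luci arrays with 4 group means (CNOT2 and Luci comparisons), to all 12 arrays with 8 group means (CNOT1, CNOT3 and mean Dox effects, with single arrays assumed to vary like the replicated groups) and to all 12 with terms for line and Dox (line comparisons). In the last, the arrays of a line with and without Dox stand as its replicates. p-values were adjusted with Benjamini-Hochberg over all genes tested, at a threshold of 0.05. The fit to the CNOT2 and Luci arrays and the line fit were run on simulated data with independent noise. The fit with single-array groups and the replicate block were not. p-values measure the spread between arrays. The series text calls the replicates technical, whereas the paper speaks of a biological and technical replicate. How far the spread is one between cultures is therefore not known.

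Replicate numbers were checked for pairing. Deviations from the group means correlated between 0.365 and 0.614 over the 6 pairs of groups, and the study describes 2 experiments, each with Luci controls, so the numbers were taken to pair arrays. The unnumbered CNOT1 and CNOT3 arrays were put with replicate 1. The members, the gene lists and the tests were chosen with earlier results of these data known. All 10 members are named, with up to 3 called genes of each list and the 3 genes most like the 3 members with the largest range of group means. A 2-fold difference was counted without a test in array pairs. Promoter windows are from RefSeq and cover 8 of 10 members.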

Additional observations from a re-analysis of the deposited data

Results flagged for a closer look

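BAK1 stood out because both CNOT2 pairs and both Luci pairs moved in opposite directions with Dox. The differences between +Dox and -Dox arrays were -0.20 and -0.15 in CNOT2 cells and 0.02 and 0.23 in Luci cells. The difference between the Dox effects was -0.30 (SE 0.35), and its adjusted p in the limma fit was 1, so that it did not exceed the spread of the arrays.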

How the results depend on the processing

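No result past its threshold changed direction under any alternative run. On replicate 1 arrays alone MCL1 (CNOT1 line) and BIK (CNOT3 line) did not pass. The replicate block raised the number of genes called to 2920 (CNOT1 line against Luci line), 1503 (CNOT3 line) and 1120 (CNOT1 line against CNOT3 line), and called no Dox effect. Its member calls are given in the report. The block together with an intensity trend, chosen after seeing the data, gave 3750, 123, 2342 and 1721 genes for the CNOT1, CNOT2 and CNOT3 lines against Luci and for CNOT1 against CNOT3, 27 for CNOT2 +Dox against Luci +Dox, and 1, 2 and 1 for the CNOT1, CNOT3 and mean Dox effects. There BIK in the CNOT1 line (adjusted p = 0.0257), BAK1 in the CNOT3 line (0.0358) and MCL1 between the CNOT1 and CNOT3 lines (0.0262) also passed. The trend alone gave 2 genes for the CNOT2 line and 391 for CNOT1 against CNOT3, and keeping dim genes gave 169 for the latter. With -Dox arrays only, 0 genes were called in all 4 line comparisons. With replicate 1 arrays only, also added later, there were 2516 (CNOT1 line), 0 (CNOT2 line) and 1024 (CNOT1 against CNOT3). Leaving out single arrays gave 192 to 1583 genes for the CNOT1 line, 0 to 1 for the CNOT2 line, 122 to 802 for the CNOT3 line and 12 to 241 for CNOT1 against CNOT3, and 0 in every Dox comparison. PMAIP1 lost its call in the CNOT1 line without the CNOT1 -Dox (adjusted p = 0.260), CNOT1 +Dox (0.0736) or second Luci +Dox array (0.0518). In the CNOT3 line it did so without the CNOT3 -Dox (0.0938), CNOT3 +Dox (0.314), second Luci -Dox (0.0588) or second Luci +Dox array (0.0672). A lone array of a line was assumed to vary like the others. BAK1 in the CNOT1 line lost its call without either CNOT1 or CNOT3 array, the first CNOT2 +Dox, either Luci -Dox or the first Luci +Dox array (adjusted p from 0.0537 to 0.261), and also with -Dox arrays only (0.599), as did PMAIP1 (0.481 and 0.815). Against the first Luci -Dox array in place of Luci +Dox, 1 member instead of 2 differed by more than 2-fold in the first CNOT2 +Dox array. Counting the second Luci -Dox array as +Dox changed no member call. PMAIP1 was still called by limma in the CNOT1 (adjusted p = 0.0275) and CNOT3 lines (0.0326), and BAK1 in the CNOT1 line (0.0426). This relabelling moved 9 values, among them the Luci Dox effect of BIK (from 0.34 to -0.89), PMAIP1 (from -0.13 to 0.51) and BCL2L11 (from 0.48 to -0.03). The difference of Dox effects for BIK also moved (from 0.42 to 1.65). The causes were not tested.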
